A study of Mus musculus with 28 samples.

Results

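This comparison concerns the brain macrophages of CReCOM mice and of wild-type (WT) mice at 11–12 months of age. It holds 6 of the 28 libraries of the series, 3 from CReCOM and 3 from WT mice, chosen by the genotype, age and sort that their titles and library names give. Each library is the RNA of 1 female mouse. The WT mice are Casp8flox/flox, with loxP sites around part of the gene for caspase-8 and no Cre. The CReCOM mice are CD11ccre Casp8flox/flox, so that both groups carry the floxed gene and differ in a Cre recombinase under the CD11c promoter. CD11c is carried by dendritic cells and by some macrophages, monocytes and other leukocytes. The study saw the gene deleted in microglia of these mice but not in the brain macrophages described here, so the groups differ by the genotype of the mouse and not by a known deletion in the sorted cells. Macrophages were sorted as CD11b+CD64+CD45hi cells from perfused brains without the meninges, and the old mice had been through a battery of behavioural tests before. The 6 macrophage libraries of the 5–6-month-old mice (3 per genotype) and the 8 microglia libraries of the 11–12-month-old mice (4 per genotype, sorted as CD45lo cells) serve below as comparisons. By mouse number, 4 mice gave both sorts at 11–12 months.

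Caspase-8 cleaves target proteins when death receptors are engaged, and it also restrains necroptosis and signals downstream of Toll-like receptors. Mice that lack it in CD11c-expressing cells develop a disease that resembles systemic lupus erythematosus. Macrophages of the CD45hi gate in the brain are mixed, since cells that live at the borders of the brain and monocyte-derived cells that enter from blood both carry these markers. In such cells type I interferon and interferon-γ switch on antiviral genes and genes of antigen presentation, and C1q is a complement protein that macrophages and microglia make themselves.

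Of the 6272 genes that passed the expression filter, 7 rose in CReCOM macrophages (0.112%) and 14 fell (0.223%), where a gene counts as called if edgeR's quasi-likelihood test gave a Benjamini-Hochberg adjusted p below 0.1 and the levels differed by more than 1.5 times. The genes that rose encode complement C1qa, parts of the MHC class I and class II machinery (B2m, H2-Eb1, Cd74), 2 interferon-induced proteins (Gbp2, Zbp1) and the myeloid protein Plac8. Those that fell are 6 genes of natural killer (NK) cells, the chemokine gene Ccl5 of T and NK cells, 3 neutrophil genes, 3 genes of the cell's cortex and motility (Actn1, Ahnak, Rac2) and the small nucleolar RNA gene Snora30. Each of the 21 genes had all 3 CReCOM libraries on one side of all 3 WT libraries. That separation was common by itself: the CReCOM libraries lay above all WT libraries for 481 of the 6272 genes (7.67%) and below them for 414 (6.6%). At an unadjusted p under 0.05, with the same fold, 190 genes were higher and 233 lower. Over all genes the median log2 fold change was 0.02, and 50.8% of genes had a positive value.

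**Figure D1:**
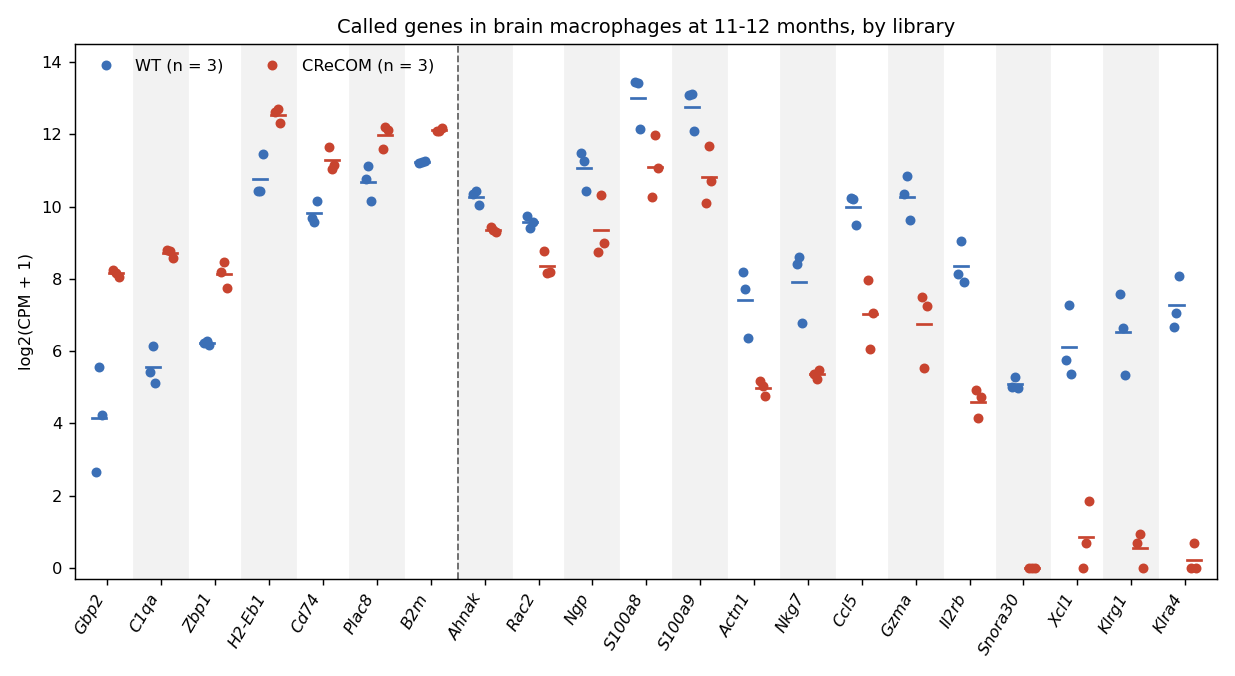
Level of each of the 21 called genes as log2(CPM + 1), where CPM is the share of the library's counts scaled to a sum of 1000000, in the 3 WT (blue) and 3 CReCOM (red) macrophage libraries at 11–12 months, with a bar at each group's mean. The 7 genes left of the dashed line rose and the 14 right of it fell, and the groups do not overlap for any of them. Snora30, Xcl1, Klrg1 and Klra4 lie at or near 0 in CReCOM libraries.

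The reference sequence upstream of 3 of the genes that rose is shown here because their lists, of interferon and MHC genes, take up much of what follows. The sequences come from RefSeq (GRCm38.p6) and run from 250 bases before to 50 bases after the RefSeq start, on the strand of the gene, 5′ to 3′. Of the 21 called genes, 13 matched a promoter entry. Capitals mark 3 motifs that were searched on both strands: the core of the interferon-stimulated response element (GAAANNGAA), the interferon-γ activated site (TTCNNNGAA, which reads the same on both strands) and the CCAAT box. The windows are chr3:142620413-142620712 for Gbp2, chr2:122147437-122147736 for B2m and chr17:34305617-34305916 for H2-Eb1, all on the plus strand.
Gbp2: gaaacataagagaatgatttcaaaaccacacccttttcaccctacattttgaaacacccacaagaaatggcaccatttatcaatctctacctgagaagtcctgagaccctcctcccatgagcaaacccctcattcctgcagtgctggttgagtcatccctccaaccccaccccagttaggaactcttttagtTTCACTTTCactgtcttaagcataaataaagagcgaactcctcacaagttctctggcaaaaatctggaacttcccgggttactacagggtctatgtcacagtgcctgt
B2m: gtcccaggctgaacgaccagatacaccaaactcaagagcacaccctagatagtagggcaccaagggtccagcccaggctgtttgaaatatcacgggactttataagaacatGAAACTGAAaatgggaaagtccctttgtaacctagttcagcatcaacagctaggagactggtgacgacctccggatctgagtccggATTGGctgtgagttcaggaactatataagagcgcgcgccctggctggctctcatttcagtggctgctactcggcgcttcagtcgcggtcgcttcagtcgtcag
H2-Eb1: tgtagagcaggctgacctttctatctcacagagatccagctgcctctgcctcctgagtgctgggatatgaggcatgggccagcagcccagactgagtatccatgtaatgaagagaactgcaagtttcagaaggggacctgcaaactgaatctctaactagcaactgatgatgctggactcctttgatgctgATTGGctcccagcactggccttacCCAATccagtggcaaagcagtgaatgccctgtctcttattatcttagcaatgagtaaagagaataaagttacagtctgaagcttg

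In the Gbp2 window the capitals are 1 match to the response element on the minus strand, whose first printed base lies 58 bases before the RefSeq start. GENCODE starts Gbp2 further upstream, at 142620602, so this distance depends on the source. The B2m window has 1 match to the same element, which begins 139 bases before the start, and 1 CCAAT box read on the minus strand. The H2-Eb1 window has 2 CCAAT boxes, 1 on each strand. No matches overlap each other in these windows. Over all 32851 promoters searched, 8.56% held the response element core, 8.3% the activated site and 37.4% a CCAAT box. The core was in 28 of 58 promoters (48.3%) of the genes of the type I interferon list and in 14 of 26 (53.8%) of those of the interferon-γ list. A CCAAT box was in 9 of 13 promoters (69.2%) of the MHC class II list and in 15 of 21 (71.4%) of the MHC class I list. These matches are descriptions of letters, not of binding.

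Library totals ran from 4185161 to 5901911 counts in WT and from 4194090 to 6570411 in CReCOM mice, so that the floor of 3 counts, the limit that a count of 0 allows, was 0.457 to 0.717 CPM per library (counting error only). In each group 1 library differed from the rest. In WT it was replicate 7, which had 9556 genes detected, against 11312 to 13117 in the other 5 libraries, and whose correlations across genes with replicates 2 and 4 were 0.593 and 0.608, against 0.767 between those 2. In CReCOM it was replicate 4, with correlations of 0.635 and 0.664 against 0.742 between replicates 1 and 3. Genes are not independent replicates, so these are descriptions. Results that change without either library are given below with that value. In what follows, values of the 3 WT libraries are listed in the order of replicates 2, 4 and 7, and those of the CReCOM libraries in the order of replicates 1, 3 and 4. Replicates are separate mice, and the replicate numbers do not pair the genotypes.

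The sorted cells carried macrophage and monocyte genes. Csf1r, the receptor that keeps macrophages alive, had 973, 852 and 1773 CPM in WT and 1526, 1219 and 985 CPM in CReCOM libraries, with overlapping groups. Fcgr1, which encodes the CD64 used in the sort, had 21.2, 15.3 and 33.5 CPM in WT and 83.3, 78.7 and 109 CPM in CReCOM libraries (log2 fold change 1.92, adjusted p = 0.572). Of the defining genes of macrophages at the borders of the brain, Lyve1, Folr2 and Cd209f had no count in any of the 6 libraries. Mrc1, the mannose receptor, was present in CReCOM replicates 1 and 3 and low elsewhere, with 4.74, 11.9 and 15 CPM in WT and 54.8, 60.5 and 1.43 CPM in CReCOM libraries. The 12 genes of that list summed to 654, 688 and 826 CPM in WT and 416, 789 and 877 CPM in CReCOM libraries, most of it F13a1, which classical monocytes also express, and 3 passed the filter. The label of brain macrophages thus rests on the sort and on general macrophage and monocyte genes. CReCOM replicate 4 had 2.38 CPM of Adgre1, which encodes the macrophage surface protein F4/80, against 57.6 to 139.8 CPM in the other 5 libraries.

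Casp8 (ENSMUSG00000026029, chromosome 1 of GRCm38, 58795374 to 58847503), the gene targeted in CReCOM mice, had 36.3, 64.3 and 44.9 CPM in WT and 87.2, 77.8 and 17.6 CPM in CReCOM macrophages. The groups overlapped, and the difference was within the spread between libraries (log2 fold change 0.31, standard error 0.64, adjusted p = 0.965). Without CReCOM replicate 1 its log2 fold change was −0.037. The libraries count tags at the 3′ ends of transcripts, and the sources used here do not say where in the transcript the floxed part lies, so these tags do not check the genotype. The study itself reports no deletion in these macrophages in DNA, and none in RNA by sequencing. Itgax, the gene of CD11c whose promoter drives the Cre, had 90.8, 106 and 109.6 CPM in WT and 108, 74.9 and 84.4 CPM in CReCOM libraries (log2 fold change −0.22, adjusted p = 0.961), so its groups overlapped too. Of 23 tested genes of cell death and caspase-8 signalling, 13 had a positive log2 fold change, the median was 0.15 and no member was called. Old CReCOM libraries alone brought 1 of the 23 into the test, and of the other 22 there were 12 positive. The largest deviations of the list by p were Bcl2, which blocks apoptosis, with 102, 206 and 196 CPM in WT and 41.1, 60.2 and 29.1 CPM in CReCOM libraries (log2 fold change −1.97, adjusted p = 0.299), and Casp1, the inflammasome caspase, with 28.1, 40.4 and 11.2 and 103, 113 and 24.8 CPM (log2 fold change 1.58, adjusted p = 0.679).

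Of the genes that rose, C1qa had the smallest p. C1qa (ENSMUSG00000036887, chromosome 4, 136895917 to 136898803, minus strand), the A chain of the C1q molecule that starts the classical pathway, had 42.2, 69.8 and 33.5 CPM in WT and 444, 435 and 378 CPM in CReCOM macrophages. Every CReCOM library was more than 5 times as high as the highest WT library, and the 3 CReCOM libraries were close to each other. The log2 fold change was 3.10 (standard error 0.41, adjusted p = 0.00115). C1qc had 157, 120.4 and 211 CPM in WT and 922, 404 and 375 CPM in CReCOM libraries, without overlap (log2 fold change 1.77, adjusted p = 0.16). C1qb had 19.5, 25.3 and 46.9 CPM in WT and 297, 226 and 45.1 CPM in CReCOM libraries, where CReCOM replicate 4 fell within the WT range (log2 fold change 2.59, adjusted p = 0.157). Neither passed the threshold. The 3 genes lie side by side on the same strand, C1qb from 136880129 to 136886187 and C1qc from 136889804 to 136893065. Cfb, a protease of the alternative pathway, had 0.339, 6.93 and 9.02 CPM in WT and 89.3, 84.6 and 61 CPM in CReCOM libraries (log2 fold change 3.83, adjusted p = 0.375). Over the whole list, 6 of 13 complement genes tested were positive, and the median was −0.22. C3, the central component, had 331, 202 and 436 CPM in WT and 199, 336 and 248 CPM in CReCOM libraries, and Itgb2, a chain of the complement receptors CR3 and CR4, had 1227, 1963 and 795 and 912, 637 and 456 CPM (log2 fold change −1.0, adjusted p = 0.291).

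Because C1q genes are strongly expressed by microglia, the 14 microglia markers were read beside them. All 14 had counts in some library, and their sum was 919, 979 and 971 CPM in WT and 1960.5, 1291 and 1262 CPM in CReCOM libraries, higher in each CReCOM library. Of the 10 that passed the filter, 9 had a positive log2 fold change (median 0.82), with none called. Old CReCOM libraries alone brought 1 of the 10 into the test, which fixed its sign, and of the other 9 there were 8 positive (median 0.88). P2ry12, an ADP receptor of resting microglia, had 0.339, 5.97 and 4.84 CPM in WT and 19.9, 23.9 and 83.5 CPM in CReCOM libraries (log2 fold change 3.51, adjusted p = 0.303), highest in replicate 4. Tmem119, another microglial marker, had 28.3, 15.3 and 37.6 CPM in WT and 73.8, 27.3 and 40.8 CPM in CReCOM libraries, with overlap. CReCOM replicate 1 had the highest sum and also the highest C1qa, C1qb and C1qc (444, 297 and 922 CPM). The 3 CReCOM libraries were close to each other in C1qa but not in C1qb or C1qc. The part of microglial RNA in the differences of the C1q genes was not tested.

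Most interferon-induced genes had positive log2 fold changes, although few passed the test singly. Gbp2 (ENSMUSG00000028270), a guanylate-binding protein of defence against intracellular pathogens, had 5.25, 46.6 and 17.8 CPM in WT and 305, 286 and 266 CPM in CReCOM libraries. The WT libraries differed among themselves by more than the CReCOM libraries did, but none reached the CReCOM level. The log2 fold change was 3.62 (standard error 0.68, adjusted p = 0.0314). Zbp1 (ENSMUSG00000027514), a sensor of Z-form nucleic acids that can start necroptosis, had 73.5, 76 and 71.1 CPM in WT and 291, 349 and 214 CPM in CReCOM libraries (log2 fold change 1.93, standard error 0.40, adjusted p = 0.0542). The WT libraries were nearly identical and the lowest CReCOM library, replicate 4, was well above them.

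Of 49 tested members of the type I interferon list, 48 had a positive log2 fold change, against 50.8% of all genes. Their median was 0.97, against 0.02 for all genes, and 1 member, Zbp1, was called. A gene entered the test when the mean of any group was high enough, and 4 of the 49 entered through old CReCOM libraries alone, so that their sign was fixed by the filter. Of the other 45 members 44 were positive (median 0.96), and 53 of all 56 with counted reads had a higher mean CPM in CReCOM mice. The CReCOM libraries lay above all WT libraries for 26 of the 49, where 7.67% of all genes did so. Isg15, a ubiquitin-like protein, had 108, 78.6 and 24.2 CPM in WT and 271, 226 and 492 CPM in CReCOM libraries (log2 fold change 2.22, adjusted p = 0.141), with the highest value in CReCOM replicate 4. Bst2, which tethers budding virus, had 103, 64.8 and 116 CPM in WT and 283, 307 and 310.4 CPM in CReCOM libraries (log2 fold change 1.64, adjusted p = 0.113). Ifi204, a DNA-binding protein, had 94.7, 136 and 195 and 292, 444 and 325 CPM (log2 fold change 1.29, adjusted p = 0.238). These 3 genes separated the groups without passing the threshold. Oasl2, related to the enzymes that activate RNase L, had 111, 109 and 73.1 CPM in WT and 259.6, 247 and 178 CPM in CReCOM libraries (adjusted p = 0.446), and Rtp4 had 28.5, 58.8 and 85.2 and 198, 175 and 236 CPM (adjusted p = 0.446). The 56 members in the count table summed to 10099.8, 9161 and 13161 CPM in WT and 17035, 17852 and 17384 CPM in CReCOM libraries. Among WT libraries replicate 7 had the highest sum, still below each CReCOM library.

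The interferon-γ list had 18 of 21 members positive, a median of 1.23 and 1 called gene, Gbp2. Of these members 3 entered the test through old CReCOM libraries alone, and of the other 18 there were 15 positive. Socs3, a feedback inhibitor of JAK-STAT signalling, had 241, 246 and 100.1 CPM in WT and 549.6, 376 and 926 CPM in CReCOM libraries, without overlap and widely spread in CReCOM (log2 fold change 1.65, adjusted p = 0.108). The immunoproteasome genes Psmb8 and Psmb9, which cut proteins for MHC class I, had log2 fold changes of 1.23 and 1.66 (adjusted p = 0.187 and 0.413). Psmb8 had 182, 144 and 129 CPM in WT and 343, 416 and 323 CPM in CReCOM libraries. Iigp1, an interferon-induced GTPase, was at or below the floor in all 3 WT libraries and had 85.1, 86.1 and 33.4 CPM in CReCOM libraries, so no fold is given (adjusted p = 0.192). Ifng itself, the gene of interferon-γ and a product of NK and T cells, went the other way, with 199, 96.1 and 15.8 CPM in WT and 25.7, 0.921 and 1.19 CPM in CReCOM libraries (log2 fold change −3.50, adjusted p = 0.413), overlapping through CReCOM replicate 1 and WT replicate 7.

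Of the genes of MHC class II, which presents peptides to CD4+ T cells, 2 rose in CReCOM macrophages. H2-Eb1 (ENSMUSG00000060586, chromosome 17, 34305867 to 34316674, plus strand), a class II β chain, had 1389, 1371 and 2784 CPM in WT and 6224, 6647 and 5056 CPM in CReCOM libraries (log2 fold change 1.66, standard error 0.33, adjusted p = 0.0436). WT replicate 7 had the highest WT level and still lay below every CReCOM library. Cd74, the invariant chain that guards the peptide groove, had 828, 767 and 1138 CPM in WT and 3188, 2120.1 and 2257 CPM in CReCOM libraries (log2 fold change 1.44, standard error 0.30, adjusted p = 0.0503). H2-Aa had 1233, 1390.4 and 2062 CPM in WT and 3629.9, 4062 and 3491 CPM in CReCOM libraries (log2 fold change 1.23, adjusted p = 0.108), just outside the threshold, and H2-Ab1 had 842, 628 and 1104 and 2515, 1814 and 1449 CPM (log2 fold change 1.13, adjusted p = 0.174). These are the α and β chains of I-A. Ifi30, Ctss and H2-DMb1, which reduce, cut and load peptides, had log2 fold changes of 0.95, 0.56 and 1.10 (adjusted p = 0.303, 0.343 and 0.376), each without overlap. Of 12 class II genes 10 were positive with a median of 1.03, and 2 were called higher, where 0.112% of all genes were. Old WT libraries alone brought 1 of them into the test, and of the other 11 there were 10 positive (median 1.10). The summed level of the whole list was 7274, 7233 and 10487 CPM in WT and 21557, 19430.3 and 16724 CPM in CReCOM libraries. Dendritic cells and B cells also carry class II. The summed B and plasma cell markers, given below, were lower in every CReCOM library. The summed level of the 14 dendritic cell markers was 388, 346 and 382 CPM in WT and 883, 694 and 874 CPM in CReCOM libraries, higher in each CReCOM library. Of 9 tested, 7 were positive (median 1.93), and none was called. Old CReCOM libraries alone brought 2 of the 9 into the test, and of the other 7 there were 5 positive (median 1.64). In 4 of the 9, Bst2, Ccr7, Dpp4 and Fscn1, the CReCOM libraries lay above all WT libraries, where 7.67% of all genes did so. Bst2, described above with the type I interferon genes, held 103, 64.8 and 116 CPM of the dendritic sum in WT libraries. In CReCOM libraries it held 283, 307 and 310.4 CPM, so the 2 lists are not independent. Dpp4 had 8.81, 39.4 and 0 CPM in WT and 132, 60.8 and 118 CPM in CReCOM libraries. Itgax overlapped, Xcr1 of cross-presenting dendritic cells had no count in any library, and Flt3 had 33, 1.19 and 38.5 and 28.8, 0.307 and 13.1 CPM. The part of dendritic cells and B cells in the class II difference was not tested.

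B2m (ENSMUSG00000060802), the light chain of MHC class I, which presents peptides to CD8+ T cells, was among the most even of the called genes. Its level was 2382, 2422 and 2469.9 CPM in WT and 4355, 4355 and 4659 CPM in CReCOM libraries, which gives 0.86 ± 0.17 on the log2 scale (standard error; adjusted p = 0.0429). The heavy chain genes H2-D1 and H2-K1 had smaller log2 fold changes of 0.42 and 0.34 (adjusted p = 0.735 and 0.807), and reads of such similar genes may be assigned to either. Tap2, which pumps peptides into the endoplasmic reticulum, had 106, 116 and 7.04 CPM in WT and 193, 253 and 268 CPM in CReCOM libraries (log2 fold change 1.64, adjusted p = 0.539), with WT replicate 7 far below the other WT libraries. Of 21 class I genes 18 were positive, with a median of 0.47, and B2m was the member that was called. Old CReCOM libraries alone brought 2 of them into the test and old WT libraries alone 1, and of the other 18 there were 16 positive (median 0.53).

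Among genes that sense nucleic acids and microbial products, Zbp1 was the called member. Of 26 tested, 22 had a positive log2 fold change, with a median of 0.77. Old CReCOM libraries alone brought 3 of them into the test and old WT libraries alone 1, and of the other 22 there were 19 positive. Tlr7, the receptor for single-stranded RNA, had 26.6, 29.6 and 25.1 CPM in WT and 65.1, 90.2 and 97.3 CPM in CReCOM libraries (log2 fold change 1.62, adjusted p = 0.469), and Unc93b1, which carries such receptors to endosomes, had 545, 425 and 235 and 607, 839 and 609.9 CPM (log2 fold change 0.75, adjusted p = 0.5). Neither overlapped between genotypes. Tlr4, the receptor for lipopolysaccharide, had 0.169, 0 and 3.08 CPM in WT and 55.4, 50.3 and 30.8 CPM in CReCOM libraries (adjusted p = 0.65), with 2 WT libraries under the floor. Its co-receptor gene Cd14 had 228, 284 and 168 and 362, 374 and 456 CPM (log2 fold change 0.79, adjusted p = 0.413). Myd88, the adaptor shared by most Toll-like receptors, had 79, 157 and 107 CPM in WT and 196, 175 and 271 CPM in CReCOM libraries (log2 fold change 0.89, adjusted p = 0.57). None of these 5 passed the threshold.

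Plac8 (ENSMUSG00000029322), which classical monocytes express, rose from 1727, 2218 and 1139 CPM in WT to 3113, 4701 and 4417 CPM in CReCOM libraries (log2 fold change 1.25, standard error 0.22, adjusted p = 0.0202). It was the called member of 10 classical monocyte markers. Ms4a4c, another monocyte gene, had 197, 129 and 88.7 and 288, 312 and 293 CPM (log2 fold change 1.08, adjusted p = 0.414), and Ly6c2, which encodes the surface protein that defines classical monocytes, had 1121, 806 and 669 and 1138, 1939 and 1278 CPM (log2 fold change 0.72, adjusted p = 0.57). The list as a whole had 4 of 10 members positive and a median of −0.10. Ccr2, the receptor that brings monocytes into tissue, had 622, 551 and 399 CPM in WT and 487, 506 and 489 CPM in CReCOM libraries, which overlapped (log2 fold change −0.10, and 0.073 without WT replicate 2). Lyz2, a lysozyme gene of macrophages, had 23804, 18366 and 25328 CPM in WT and 15702, 15851 and 13658 CPM in CReCOM libraries (log2 fold change −0.61, adjusted p = 0.195). It was lower in every CReCOM library without passing the threshold.

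**Figure D2:**
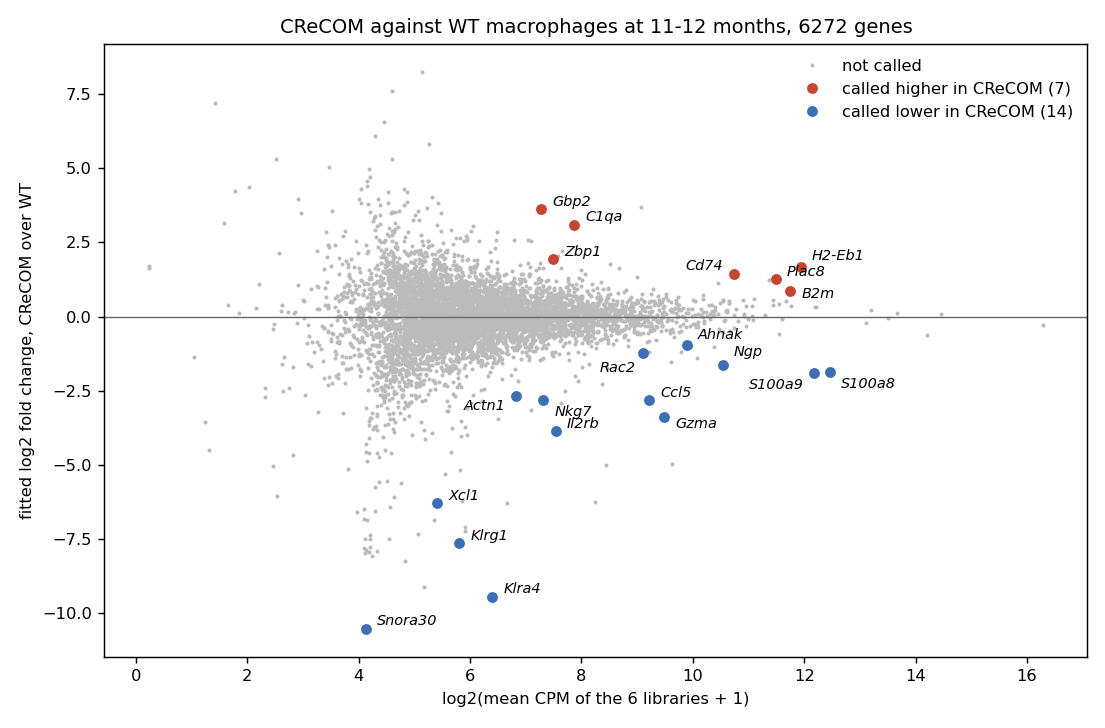
Fitted log2 fold change of CReCOM over WT macrophages at 11–12 months (vertical) against log2 of the mean CPM of the 6 libraries plus 1 (horizontal), for the 6272 genes tested. The 7 genes called higher (red) and 14 called lower (blue) are named, and the fitted values of Snora30, Klra4, Klrg1 and Xcl1 rest on CReCOM libraries with few or no counts.

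The genes that fell were led by those of NK cells, which kill stressed and infected cells and are not macrophages. Il2rb (ENSMUSG00000068227, chromosome 15, 78479256 to 78495271, minus strand), the receptor chain through which NK cells receive IL-15, had 279, 527 and 238 CPM in WT and 29.4, 16.6 and 25.8 CPM in CReCOM libraries (log2 fold change −3.87, standard error 0.42, adjusted p = 0.000224). Gzma (ENSMUSG00000023132), a granule protease, had 1299, 1832 and 794 CPM in WT and 181, 45.1 and 150.2 CPM in CReCOM libraries (log2 fold change −3.39, standard error 0.44, adjusted p = 0.00102). Nkg7 (ENSMUSG00000004612), a granule membrane protein, had 337, 385 and 109 CPM in WT and 40.3, 36.4 and 43.2 CPM in CReCOM libraries (log2 fold change −2.80, standard error 0.44, adjusted p = 0.00675). The lowest WT library of Nkg7 was replicate 7, which was still above every CReCOM library.

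Klra4 (ENSMUSG00000079852), a Ly49 receptor that recognises MHC class I, had 101, 131 and 269 CPM in WT libraries, while CReCOM replicates 1 and 4 had no count and replicate 3 had 0.614 CPM (adjusted p = 0.000515). Klrg1, an inhibitory receptor, had 191, 98.7 and 39.2 CPM in WT and 0.609, 0.921 and 0 CPM in CReCOM libraries (adjusted p = 0.0202). Xcl1, a chemokine that NK cells release to attract dendritic cells, had 52.5, 154 and 39.8 and 0, 0.614 and 2.62 CPM (adjusted p = 0.0542). No fold is given for these 3 genes, whose CReCOM levels lie around the floor. Klra4 belongs to a family of close copies, so its reads may be shared with related Ly49 genes. All 17 NK markers tested had a negative log2 fold change, against 3086 of the 6272 genes, with a median of −2.92. Of the 17, 6 were called lower, where 0.223% of all genes were. Of these 17 only 1 entered the test through old WT libraries alone, which fixed its sign, and the other 16 had a median of −2.88. Their summed level was 3447, 4719 and 1972 CPM in WT and 444, 189.9 and 539.6 CPM in CReCOM libraries, a ratio of mean sums of 8.64. WT replicate 7 had the lowest WT sum. Members that were not called include Gzmb, another granule protease, with 409, 573 and 61.2 and 6.24, 21.9 and 109 CPM (log2 fold change −2.92, adjusted p = 0.414) and Tbx21, the factor T-bet, with 76.8, 131 and 53 and 19.2, 9.36 and 14.8 CPM (log2 fold change −2.60, adjusted p = 0.195). Ncr1, the NK receptor NKp46, had 153, 61.4 and 23.8 CPM in WT and 0, 1.07 and 0.954 CPM in CReCOM libraries (adjusted p = 0.157).

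T cell genes, some of which NK cells share, were scarce. Cd8a, Cd8b1 and Cd6 had no count in any of the 6 libraries, and the summed level of the 18 T cell markers was 233, 321 and 138 CPM in WT and 204, 62.8 and 81.8 CPM in CReCOM libraries, which overlap. Cd3e had 1.19, 0 and 0 CPM in WT and 0, 0 and 62.7 CPM in CReCOM libraries. In these bulk samples fewer cells of a type and less RNA per cell cannot be told apart. The sort selected CD64+ cells, and NK cells carry CD11b but not CD64. Ccl5 (ENSMUSG00000035042), a chemokine that NK and T cells make in quantity, fell with the NK genes, from 1217, 1192 and 712 CPM in WT to 251, 65.1 and 132 CPM in CReCOM libraries (log2 fold change −2.82, standard error 0.44, adjusted p = 0.00675).

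Of the neutrophil genes 3 fell, with a wider spread between libraries. S100a8 (ENSMUSG00000056054, chromosome 3, 90668978 to 90670035, plus strand) and S100a9 (ENSMUSG00000056071, chromosome 3, 90692632 to 90695721, minus strand) encode the 2 subunits of calprotectin, which neutrophils hold in bulk. S100a8 had 11236, 10865 and 4516 CPM in WT and 1233, 4014 and 2139 CPM in CReCOM libraries (log2 fold change −1.86, standard error 0.35, adjusted p = 0.0328). S100a9 had 8738, 8809 and 4363 CPM in WT and 1095, 3244 and 1656 CPM in CReCOM libraries (log2 fold change −1.89, standard error 0.33, adjusted p = 0.0202). In both genes WT replicate 7 was far below the other WT libraries, and CReCOM replicate 3 came close to it. Ngp, a granule protein of immature neutrophils, had 2862, 2445 and 1384 CPM in WT and 426, 1270.4 and 508 CPM in CReCOM libraries (log2 fold change −1.62, standard error 0.33, adjusted p = 0.0485), with the same pattern among libraries. Lcn2, Ltf and Mmp8, also of neutrophil granules, had log2 fold changes of −1.99, −2.29 and −2.17 (adjusted p = 0.113, 0.141 and 0.159) and did not pass. Retnlg, a gene of mature neutrophils, had 2559, 1883 and 158 CPM in WT and 18.3, 75.8 and 52.9 CPM in CReCOM libraries (log2 fold change −4.98, adjusted p = 0.157), and Cxcr2, their main chemokine receptor, had 101, 159 and 8.8 and 0.152, 5.99 and 0.477 CPM (adjusted p = 0.195). In both, WT replicate 7 was far below the other WT libraries. Of 21 neutrophil markers tested 20 were negative, the median was −1.89 and 3 were called lower, where 0.223% of all genes were. Old WT libraries alone brought 3 of the 21 into the test, and of the other 18 there were 17 negative (median −1.87). All 22 markers in the table had counts, and they summed to 31336, 29307 and 12849 CPM in WT and 3554, 11047 and 5581 CPM in CReCOM libraries, so WT replicate 7 and CReCOM replicate 3 nearly met.

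Besides these, 3 genes that many cell types use for shape and movement fell. Rac2 (ENSMUSG00000033220), a GTPase of leukocyte migration and oxidant production, had 860.2, 672 and 755 CPM in WT and 433, 284 and 291 CPM in CReCOM libraries (log2 fold change −1.21, standard error 0.24, adjusted p = 0.044). Actn1 (ENSMUSG00000015143), which bundles actin at adhesions, had 292, 209 and 81.9 CPM in WT and 34.9, 31.5 and 26.2 CPM in CReCOM libraries (log2 fold change −2.67, standard error 0.53, adjusted p = 0.0429). Its WT libraries were spread over a wide range and its CReCOM libraries were close together. Ahnak (ENSMUSG00000069833), a very large scaffold protein under the cell membrane, had 1307, 1384 and 1054 CPM in WT and 697, 652 and 623 CPM in CReCOM libraries (log2 fold change −0.95, standard error 0.19, adjusted p = 0.0429). The adhesion and actin list, which holds Actn1 and Rac2 but not Ahnak, had 13 of 41 positive and a median of −0.20. Itgb1, an integrin chain for matrix, had 602, 556 and 657 CPM in WT and 427, 379 and 120.2 CPM in CReCOM libraries (log2 fold change −1.0, adjusted p = 0.445). Neutrophils and NK cells also express Rac2 and Actn1, and the part of the marker levels given above in these differences was not tested.

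Among 11 chemokine genes, 7 had a negative log2 fold change and 2, Ccl5 and Xcl1, were called (median −1.03). Ccl6, made by myeloid cells, had 1688, 1666 and 1936 CPM in WT and 928, 1069.6 and 652 CPM in CReCOM libraries (log2 fold change −1.03, adjusted p = 0.159), without overlap. Cxcl2, which draws neutrophils, had 1431, 1712 and 343 and 436, 435 and 332 CPM (log2 fold change −1.54, adjusted p = 0.201), where WT replicate 7 lay in the CReCOM range. Ccl3 and Ccl4, which draw many leukocytes and are made by NK cells as well, had log2 fold changes of −1.07 and −1.21 (adjusted p = 0.376 and 0.366). Cxcl16, a membrane-bound chemokine, had the opposite sign, with 40.7, 19.8 and 0 CPM in WT and 116, 184 and 59.8 CPM in CReCOM libraries (log2 fold change 2.55, adjusted p = 0.583). No chemokine other than Ccl5 and Xcl1 passed.

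Snora30, a small nucleolar RNA that guides RNA modification, had 30.8, 38 and 30.4 CPM in WT libraries and no count in any CReCOM library (adjusted p = 0.0952). Against the floor of 3 counts in each CReCOM library its mean was at least 60.8-fold lower. It lies on chromosome 7, 127527874 to 127528003, and whether counting used strand is not given in the sources used here, so reads of any gene that overlaps it cannot be told apart from its own. Of the 44 genes that the study names for these macrophages, a list it chose on these samples, 39 passed the filter, and 7 of them were called higher and 5 lower.

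**Figure D3:**
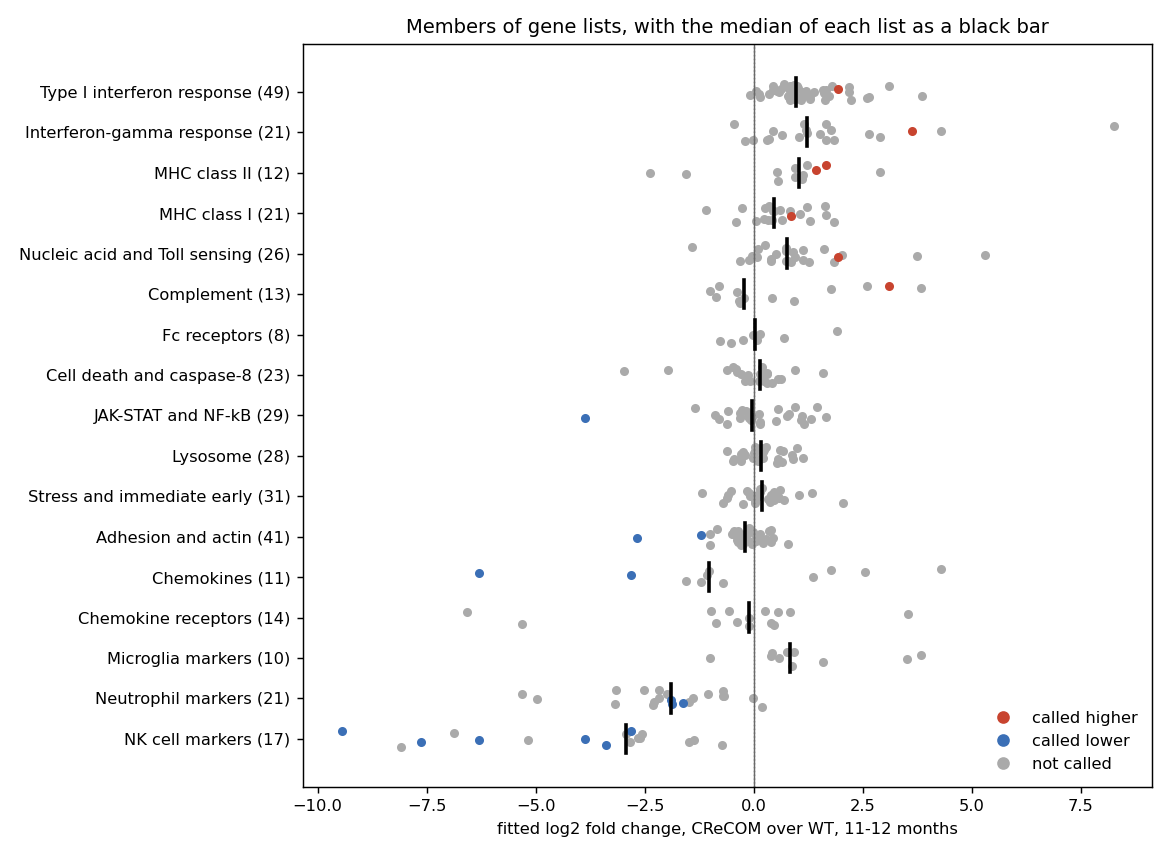
Fitted log2 fold changes of the members of 17 gene lists in macrophages at 11–12 months, 1 point per gene (red called higher, blue called lower, grey not called), with the number of genes tested in brackets, a black bar at the list's median and a dotted line at the median of all genes. The type I interferon list has 48 of 49 members above 0 and the NK list has all 17 below 0, while lists such as lysosome and Fc receptors centre near 0.

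The remaining marker lists give the makeup of the sort. The summed level of the 14 B and plasma cell markers was 783, 538 and 2802 CPM in WT and 178, 170.1 and 282 CPM in CReCOM libraries, and Cd79a had no count in any. Igkc, the κ light chain, had 389, 275 and 1358 CPM in WT and 2.59, 12.3 and 50.5 CPM in CReCOM libraries (adjusted p = 0.57), and Jchain, of secreted antibodies, had 228, 70.0 and 37.9 and 0.609, 2.46 and 1.43 CPM (adjusted p = 0.258). Prg2, the major basic protein of eosinophils, had 186, 382 and 26.9 and 0.609, 3.38 and 3.58 CPM (adjusted p = 0.19). These 3 genes separated the groups without passing the threshold. Of 9 macrophage markers tested, 5 had a positive log2 fold change (median 0.02), and none was called. The summed level of the 10 macrophage markers was 25794, 20221 and 27988 CPM in WT and 18574, 18407 and 15778 CPM in CReCOM libraries, most of it Lyz2. For the 10 markers of non-classical monocytes it was 6011, 7516 and 3279.6 CPM in WT and 5454, 5774 and 7583 CPM in CReCOM libraries, with overlap. For the 10 neuron and oligodendrocyte markers it was 777, 677 and 1204 CPM in WT and 421, 738 and 776 CPM in CReCOM libraries. The summed astrocyte markers reached at most 98.0 CPM in any of the 6 libraries.

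**Figure D4:**
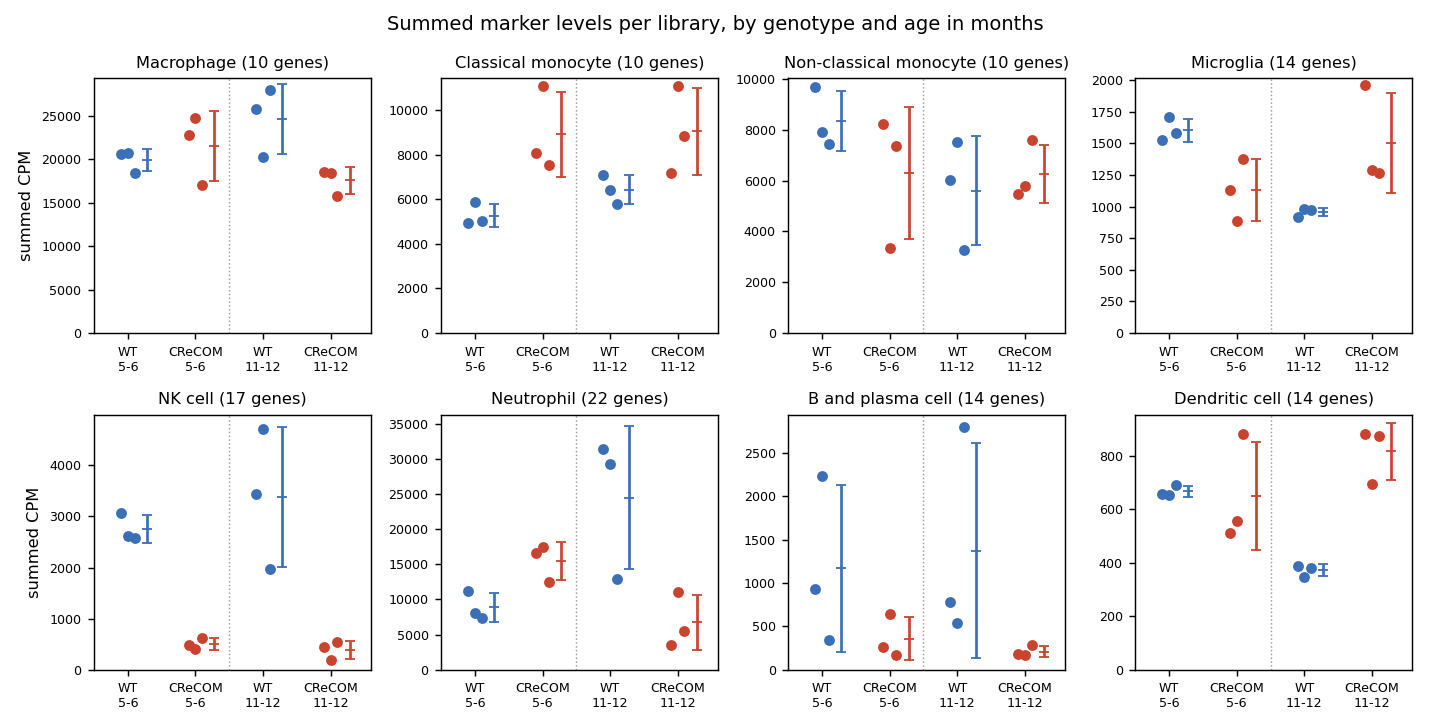
Summed CPM of 8 lists of cell type markers in each macrophage library, by genotype (WT blue, CReCOM red) and age in months, with the mean and SD of each group of 3 beside the points. NK sums lie lower in CReCOM mice at both ages, neutrophil sums lie higher in CReCOM mice at 5–6 months and lower at 11–12 months, and microglia and dendritic cell sums lie higher in CReCOM mice at 11–12 months.

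Other lists had medians near that of all genes, although single members deviated in both directions. Of 28 lysosomal genes 18 were positive (median 0.17) and of 8 Fc receptor genes 4 (median 0.03), with no gene called in either. Oxidative phosphorylation genes had a median of 0.14 over 29 genes, glycolysis genes −0.10 over 14 and ribosomal protein genes 0.21 over 36. In the list of JAK-STAT and NF-κB signalling 14 of 29 were positive and Il2rb was the called member, while 4 members were higher and 3 lower at an unadjusted p under 0.05 with a fold over 1.5. Nfkbia, an early target and inhibitor of NF-κB, had 3263, 3589 and 3874 CPM in WT and 2337, 2175 and 2669.7 CPM in CReCOM libraries (log2 fold change −0.60, adjusted p = 0.376). Chemokine receptor genes had a median of −0.10 over 14 genes, scavenging and lipid genes 0.02 over 22 and iron and redox genes 0.02 over 19, with none called. Among 12 cytokine genes 6 were positive, and at the same unadjusted threshold 2 were higher and 3 lower. Over all 6272 genes 190 were higher and 233 lower at that threshold. Old CReCOM libraries alone brought 1 of the 12 into the test and old WT libraries alone 2, which fixed their signs. Of the other 9 there were 5 positive. Tnf had 217, 69.8 and 58.5 CPM in WT and 39.1, 43.4 and 31.2 CPM in CReCOM libraries (log2 fold change −1.63, adjusted p = 0.478), and Il1rn, which blocks the IL-1 receptor, had 23.7, 50.4 and 0.22 and 207, 88.1 and 152 CPM (log2 fold change 2.59, adjusted p = 0.446).

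Of the 21 calls, 6 held when any single one of the 6 libraries was left out: those of C1qa, Il2rb, Klra4, Gzma, Nkg7 and Ccl5, with a highest adjusted p of 0.0898 among them. The other calls depended on single libraries. Gbp2 was lost without WT replicate 2 (adjusted p = 0.134), Plac8 without WT replicate 2 or CReCOM replicate 4 (up to 0.134) and Klrg1 without WT replicate 2 or CReCOM replicate 1 (up to 0.189). Cd74, B2m, S100a8 and Ngp lost the call when replicate 2 or 4 of WT or replicate 1 or 4 of CReCOM was left out (up to 0.243, 0.189, 0.219 and 0.301). S100a9 lost it without replicate 2 or 4 of WT or replicate 4 of CReCOM (up to 0.189), Rac2 without replicate 2 of WT or replicate 3 or 4 of CReCOM (up to 0.243), and Xcl1 without replicate 2 or 4 of WT or replicate 1 or 3 of CReCOM (up to 0.237). H2-Eb1, Actn1, Ahnak and Snora30 were called only with all libraries or without WT replicate 7 (adjusted p without one of the others up to 0.243, 0.296 and 0.219 for the first 3), and Zbp1 only with all libraries or without CReCOM replicate 4 (up to 0.227). Without WT replicate 7, 14 genes were called higher and 25 lower, and without CReCOM replicate 4 these counts were 4 and 10. They were 1 and 5 without WT replicate 2, 3 and 7 without WT replicate 4, 3 and 11 without CReCOM replicate 1, and 6 and 22 without CReCOM replicate 3. DESeq2, which called 46 genes higher and 80 lower, also called each of the 21. With 3 libraries against 3, an exact permutation test of a single gene cannot go below 0.1.

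The same genotypes at 5–6 months show which differences were present early. Their libraries are listed in the order of replicates 1, 2 and 6 for WT and 3, 4 and 5 for CReCOM mice. At that age 3 of the 6272 genes were called (0.0478%), and these were Il2rb, Gzma and Nkg7, all lower in CReCOM macrophages. Il2rb had 215, 209 and 308 CPM in the 3 young WT libraries and 46.9, 43.9 and 45 CPM in the 3 young CReCOM libraries (log2 fold change −2.44, adjusted p = 0.0456). All 17 NK markers were negative at this age as well (median −2.47), and their sums were 3068, 2625 and 2578 CPM in WT and 492, 403 and 627 CPM in CReCOM libraries. The type I interferon list had 46 of 49 members positive at 5–6 months, with a median of 0.65. MHC class II genes had a median of 0.04, with 8 of 12 positive. H2-Eb1 had 3899.8, 2849 and 3958 CPM in young WT and 1733, 3914 and 5161 CPM in young CReCOM libraries, which overlapped.

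Whether the genotype difference itself differed between ages was tested as an interaction, and 6 of 6272 genes passed (0.0957%). C1qa had 141, 310.2 and 400.0 CPM in young WT and 160.0, 171 and 253 CPM in young CReCOM libraries, with overlap and a log2 fold change of −0.56. The old WT libraries were below every young WT library, and the old CReCOM libraries were above every young CReCOM library. The log2 difference between ages was 3.66 (standard error 0.55, adjusted p = 0.0257), and it missed the threshold without any one of 5 libraries (old WT replicate 2, young WT replicates 2 and 6, young CReCOM replicates 3 and 4, adjusted p up to 0.168). The neutrophil genes S100a9, Ngp, Lcn2 and S100a8 had higher levels in young CReCOM than in young WT libraries and lower levels at 11–12 months. S100a9 had 3515, 2357 and 1967 CPM in young WT and 5082, 5317 and 3752 CPM in young CReCOM libraries, without overlap, and Ngp had 967, 901 and 815 and 2027, 1849 and 1798 CPM. Their log2 differences between ages were −2.74, −2.70, −3.60 and −2.65 (adjusted p = 0.0418, 0.0418, 0.0434 and 0.0481). Each lost its call without any one of at least 8 of the 12 libraries (adjusted p up to 0.215, 0.215, 0.262 and 0.343 in the same order), the old WT replicates 2 and 4 among them, and those of S100a9 and S100a8 were lost with weaker filters on low counts too (up to 0.431 and 0.61). Klra4 also passed (adjusted p = 0.0434), with 27.4, 75.1 and 75.4 CPM in young WT and 8.22, 10.3 and 12.5 CPM in young CReCOM libraries, and its call was lost without any one of 10 of the 12 libraries (up to 0.215).

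As a list, the 21 neutrophil markers had a median log2 fold change of 0.79 at 5–6 months, with 15 positive, against −1.89 and 1 at 11–12 months. Their sums were 11218, 8041 and 7307 CPM in young WT and 16544, 17414 and 12415 CPM in young CReCOM libraries. Of the microglia markers 1 of 10 was positive at 5–6 months (median −0.68), against 9 at 11–12 months. Young WT libraries alone brought 2 of the 10 into the test and old CReCOM libraries alone 1, so the filter fixed their signs at those ages. The old WT libraries had microglia sums below each of the young WT libraries at 1524, 1705 and 1579 CPM, and the young CReCOM libraries had 1132, 888 and 1376 CPM. At 5–6 months CReCOM replicate 5 held 16157 CPM of erythroid and platelet markers against at most 81.3 in any other of the 12 libraries.

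**Figure D5:**
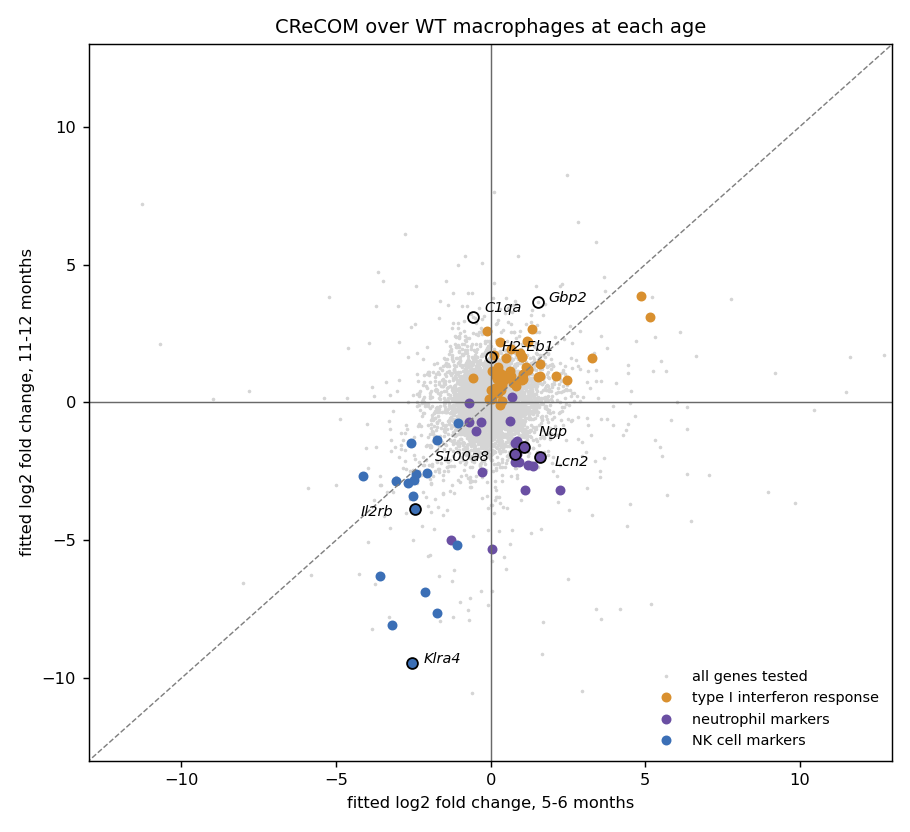
Fitted log2 fold change of CReCOM over WT macrophages at 5–6 months (horizontal) and 11–12 months (vertical) for 6272 genes (grey), with type I interferon genes (orange), neutrophil markers (purple) and NK markers (blue), and equality as a dashed line. NK genes lie below 0 at both ages, most neutrophil genes lie right of 0 and below it, and C1qa lies far above the line.

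The microglia of 11–12-month-old mice give a second comparison, since the CD45lo cells came from the same kind of mice. Over 5675 genes kept in both sorts, the genotype difference differed between macrophages and microglia for 18 (0.317%), 11 with the larger value in macrophages. C1qa was first, with a log2 fold change of 0.56 in microglia and a difference between sorts of 2.53 (standard error 0.37, adjusted p = 0.000803). That call held without any single library of the 14, but it was lost when the mouse was taken as a block with limma-voom (adjusted p = 0.297). The class II genes H2-Aa and H2-Ab1 had log2 fold changes of −1.35 and −1.04 in microglia, and differed between sorts by 2.57 and 2.16 (adjusted p = 0.00696 and 0.0975). H2-Aa kept its call under every alternative run, the mouse block included, and H2-Ab1 lost it without any one of 8 libraries (up to 0.191) and with only the 14 libraries of this age (0.343). Cd14 and P2ry12 differed by 1.80 and 4.21 (adjusted p = 0.0667 and 0.0483), and Cst3, which encodes cystatin C, by 1.43 (adjusted p = 0.00755). P2ry12 rests on macrophage libraries with low counts and lost its call without macrophage CReCOM replicate 4 (adjusted p = 0.131) or any one of 4 microglia libraries (up to 0.109), and Cd14 lost its call without macrophage WT replicate 7 or CReCOM replicate 4 (0.167 and 0.137), any one of 4 microglia libraries (up to 0.191), or with only the 14 libraries (0.205). With the mouse as a block P2ry12 and Cst3 lost their calls (0.407 and 0.115). B2m had 0.13 in microglia and did not pass this test (difference 0.72, adjusted p = 0.368). In microglia 32 of 41 type I interferon genes in the joint fit were positive, with a median of 0.74, and 6 of 10 class II genes, with a median of 0.04. The NK genes did not pass the filter in microglia and have no value there.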

How the data were processed

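RNA of macrophages sorted from single brains was made into 3′ mRNA libraries (QuantSeq) and sequenced on a NextSeq 500. The authors demultiplexed and trimmed the reads, aligned them with STAR to mm10 (GRCm38) and counted them per gene with HTSeq. Tool versions, the annotation release and the strand setting are not given in the sources used here. The authors removed some samples before deposit, for reasons of quality, behaviour or disease. The deposited counts are raw whole-number counts of reads per gene. The deposited CPM values are those counts scaled to a library sum of 1000000, and recomputed CPM differed from them by at most 2.56e-05. All results rest on the deposited counts.

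Genes were kept where log2(CPM + 1) of the mean of at least 1 of the 4 macrophage groups was above 5, which left 6272. The 12 macrophage libraries were fitted together by edgeR's quasi-likelihood test (edgeR 4.0.16, R 4.3.3) with TMM factors and robust dispersion, and p-values were adjusted by Benjamini and Hochberg over all genes. Calls needed an adjusted p below 0.1 and a difference of more than 1.5 times. Standard errors are the size of the log2 fold change divided by the square root of F. The difference between sorts was fitted over all 28 libraries and 5675 genes kept in both sorts. Alternatives were DESeq2 1.42.0, limma 3.58.1 (trend, and voom with the mouse as a block), other size factors, filters and thresholds, and leaving out each library. The code was tested on simulated data. Replicates are separate mice, and the floor is 3 counts per library (counting error only).

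The genes named are Casp8, Itgax, all called genes, the genes the study names, the up to 4 members of each other list with the smallest p, the up to 15 genes in each direction with the smallest p among those that did not overlap, the up to 10 of either interaction with the smallest p, and the most abundant members of marker sums. Others, such as C3, H2-D1, H2-K1, Cd274, Tmem119, Adgre1, Csf1r and the defining markers at or near 0, were added after their values were seen. Levels at or under 3 counts in all libraries of a group get no fold. Coordinates are from GENCODE vM21 and promoters from RefSeq. Values of some genes are not reported here. The members and lists were chosen with earlier results of these data known.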

Additional observations from a re-analysis of the deposited data

Results flagged for a closer look

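In macrophages the CReCOM-minus-WT difference itself differed between ages for 6 genes, by the interaction term of edgeR's quasi-likelihood test. On the log2 scale, 11–12 minus 5–6 months, it was 3.66 for C1qa, −2.74 for S100a9, −2.70 for Ngp, −2.65 for S100a8 and −3.60 for Lcn2. For Klra4 the fitted value was −6.91, which rests on old CReCOM libraries at or under 1 CPM and is not a bound.

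At 11–12 months the genotype difference differed between macrophages and microglia for 18 genes, by the interaction term of the fit over all libraries. The log2 values of 17 of them, macrophages minus microglia, were 2.53 for C1qa, 2.57 for H2-Aa and 2.16 for H2-Ab1. Genes of other roles with a larger value in macrophages were Cst3 with 1.43, Lmo2 with 2.36, Id3 with 4.22, P2ry12 with 4.21, Cd14 with 1.80, Rassf2 with 2.31, Cept1 with 2.74 and Rhob with 1.05. Genes with the smaller value in macrophages were Grina with −2.27, Camk2n1 with −2.47, Dnaja1 with −2.33, Mtmr2 with −4.86, Prkab1 with −5.88 and Snora30 with −7.85. Snora30 had no count in the old CReCOM macrophage libraries, so that its fitted value is no bound. Groups of 3 libraries were not tested for single outlying libraries.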

How the results depend on the processing

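No paired analysis was possible because the CReCOM and WT mice at 11–12 months share only the number 4, which does not tie the mice to each other. Against 7 genes higher and 14 lower in the main fit, DESeq2 called 46 and 80, a fit without a filter on low counts 33 and 41, and limma-trend 21 and 27. The filter of edgeR gave 20 higher, and an unadjusted p gave 190 and 233. Leaving out single libraries gave 1 to 14 genes higher and 5 to 25 lower. The ends were set by the old WT replicates 2 and 7, and the counts also moved by over 1.5 times without old CReCOM replicate 1 (3 higher) or 3 (22 lower), old WT replicate 4 (3 and 7), old CReCOM replicate 4 (4 higher), young CReCOM replicate 3 (11 higher) or young WT replicate 6 (11 higher). The 6 differences between ages became 49 by DESeq2, 26 with no filter and 0 to 12 without single libraries, with 0 without old WT replicate 2, young WT replicates 2 or 6, or young CReCOM replicates 3 or 4, 1 without old CReCOM replicates 1 or 4 or old WT replicate 4, 3 without young WT replicate 1, and 12 without old CReCOM replicate 3. The 18 differences between sorts became 7 with the mouse as a block (limma-voom), 10 with only the libraries of 11–12 months, and 6 to 68 without single libraries. The highest counts were 68 without microglia CReCOM replicate 1, 47 without macrophage WT replicate 4 and 32 without macrophage CReCOM replicate 3, and the lowest were 6 without microglia WT replicate 3 and 8 without microglia CReCOM replicate 4 or WT replicate 2, then 11 without microglia CReCOM replicate 5. Fewer samples enter each of these fits, and the cause of the other shifts was not tested. Over 99 genes, 1876 of 1879 alternative values kept their direction. The exceptions were Casp8 with −0.037 without old CReCOM replicate 1 (range −0.037 to 0.73 over single libraries left out), Ighm with 0.15 without old WT replicate 7 (range −2.15 to 0.15) and Ccr2 with 0.073 without old WT replicate 2 (range −0.25 to 0.073). All 227 alternative values of the differences between ages and sorts kept theirs. Other scalings moved the median of all genes to at most 0.039. At these depths genes under the filter were not compared.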

Other observations

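Cd274, the gene of the checkpoint ligand PD-L1, had 6.78, 37.3 and 0.22 CPM in WT and 60.7, 58.6 and 151 CPM in CReCOM macrophages (log2 fold change 2.64), without overlap. All 5 tested genes of co-stimulation had a positive log2 fold change at 11–12 months (median 0.40), with none called. Stress and immediate early genes had 22 of 31 positive at 11–12 months and 6 of 31 at 5–6 months, with medians of 0.19 and −0.29. Hspa1b, a heat-shock chaperone gene, had 35.9, 52.3 and 131 CPM in WT and 489.8, 178 and 261 CPM in CReCOM libraries at 11–12 months (log2 fold change 2.05). Cell cycle genes had 6 of 17 positive at 11–12 months (median −0.55) and 15 of 17 at 5–6 months (median 0.52). Old CReCOM, old WT and young CReCOM libraries alone each brought 1 of the 17 into the test. Without the 1 of old CReCOM and the 1 of old WT, 5 of 15 were positive at 11–12 months. Classical monocyte markers had 4 of 10 positive at 11–12 months and all 10 at 5–6 months, where the median was 0.86. These differences between ages were not tested as lists.

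Spp1, the gene of osteopontin, had 1.69, 1.19 and 0.88 CPM in WT and 133, 42.7 and 44.3 CPM in CReCOM libraries at 11–12 months. Atg4c, an autophagy protease gene, had 0.169, 0.478 and 0 and 53.1, 18.9 and 66 CPM. Markers of mast cells, basophils and eosinophils summed to 405, 409.5 and 95.5 CPM in WT and 1.37, 51.4 and 5.72 CPM in CReCOM libraries, and endothelial and pericyte markers to 155, 172 and 154 and 79.4, 126 and 37.2 CPM, both lower in every CReCOM library.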
